A study of Mus musculus with 6 samples.

Results

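The enzymes of glycolysis, the pentose phosphate pathway and the tricarboxylic acid (TCA) cycle were followed through a list of 40 genes, matched by name to the gene identifiers of the deposited tables. All 40 were found among 24343 genes: 20 of glycolysis, 4 of the pyruvate dehydrogenase complex and its kinases, 11 of the TCA cycle and 5 of the pentose phosphate pathway. RNA sequencing covered natural killer (NK) cells, sorted as NK1.1+ NKp46+ CD3- CD1d tetramer- from spleens; the mice were female C57BL/6. One group of mice had received IL-15 cytokine complexes (IL-15C) and the other IL-2 cytokine complexes (IL-2C), with 3 libraries in each group. The sources used here do not give dose, timing, age or the carrier protein of the complexes. With untreated cells not analysed here, each difference lies between the 2 treatments. The wider study asked about cerebral malaria in mice whose NK cells had been stimulated by IL-15 complexes.

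Glycolysis splits glucose into pyruvate. Lactate dehydrogenase reduces pyruvate to lactate in the cytosol, or the pyruvate dehydrogenase complex turns it into acetyl-CoA in mitochondria, which citrate synthase feeds into the TCA cycle. The pentose phosphate pathway branches off at glucose 6-phosphate; its oxidative arm makes NADPH and its non-oxidative arm makes and recycles sugar phosphates for nucleotides. NK cells held in IL-2 or IL-15 increase glucose uptake and glycolysis, and their interferon gamma and granzyme production depends in part on it. The cytokines signal through the same beta and common gamma receptor chains.

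Levels are FPKM, fragments scaled to transcript length and to the mapped fragments of the library, which can be compared between genes. The deposited intervals implied 23543141 to 27229145 fragments per library, and 14491 to 14695 genes per library were above 0. These fragment totals are approximate, because intervals of abundant genes are wider than counting error and put their fragments too low. Log values correlated across genes at Pearson r of 0.990 to 0.997 between libraries, and genes are not independent replicates. The 10 NK cell markers, among them Ncr1 and Klrb1c, which encode the sort markers NKp46 and NK1.1, summed to 11402 to 12112 FPKM under IL-15C and 10791 to 12254 under IL-2C, and 0 of them passed the test. Of the 9 T cell markers, 5 were below the filter, with Cd4 and Cd8a at or below 0.0767 FPKM in each. The CD3 chain genes were present although the sort was CD3-, with Cd3g at 30.7 to 44.6 FPKM, Cd3d at 15.3 to 22.3 and Cd3e at 3.40 to 5.70, and the T cell adaptor gene Lat was at 44.0 to 53.9 FPKM. These 4 did not pass the test. IL-15C replicate 1 stood apart in other markers: its granulocyte sum was 110 FPKM against 40.8 to 54.6 in its group and 40.7 to 59.9 in IL-2C, and its erythroid sum was 110 FPKM against 75.3 to 79.4 and 76.6 to 78.8. Granulocyte markers found were 8 of 9 listed and erythroid markers 9 of 9. Whether each library is a separate mouse is not labelled; p-values therefore measure only how these samples vary, and that variation may be technical.

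IL-15C cells had less transcript of 4 enzyme genes than IL-2C cells and significantly more of 0. The 4 were Idh2, the mitochondrial NADP-dependent isocitrate dehydrogenase; Idh3g, a subunit of the NAD-dependent isocitrate dehydrogenase of the TCA cycle; Bpgm, which makes 2,3-bisphosphoglycerate from a glycolytic intermediate; and Pfkm, the muscle-type phosphofructokinase. The remaining 32 of the 36 enzyme genes that reached a mean of 1 FPKM, and so entered the test, did not pass. The test was limma's moderated test on log2(FPKM + 1), with p-values adjusted over all 9831 genes tested and a threshold of 0.05. Over all genes tested, 1.72% were higher and 4.72% lower in IL-15C by the same rule, so the 4 lower enzyme genes, 11.1% of those tested, stand beside a background that itself leaned lower. With single libraries left out in turn, the count of lower enzyme genes was 3 when IL-15C replicate 1 was dropped and 2 when IL-2C replicate 3 was. It was 1 when IL-15C replicate 2, IL-15C replicate 3 or IL-2C replicate 2 was dropped, and 0 on dropping IL-2C replicate 1. It was also 0 when all genes were tested with no filter on low levels. The share of all genes called under these alternatives is not given here, so the counts cannot be read as particular to the enzyme genes. In a sorted population such as this, fewer cells of one kind and less RNA per cell cannot be told apart.

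The split between higher and lower calls depended on how libraries were scaled. The median log2 change (IL-15C minus IL-2C) of all genes tested was -0.04. Scaling each library to a common median brought it to 0.0005 and called 3 enzyme genes higher (Pfkp, Aldoa and Tkt) and 1 lower (Idh2), against backgrounds of 3.31% and 2.11%. Rescaling each library to a common FPKM sum (TPM) called 2 higher (Pfkp and Tkt) and 3 lower (Bpgm, Idh2 and Idh3g), with 2.08% and 3.32% of all genes. Quantile normalization called 2 higher (Pfkp and Tkt) and 2 lower (Idh2 and Idh3g), with 3.12% and 2.74%. Among the 36 enzyme genes, Idh2 alone was called in the same direction by the fit on the deposited values and by each of the 3 scalings.

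Most enzyme genes lay above 0 in the deposited scaling although few were called. Of the 36 tested, 22 (61.1%) had a log2 change above 0, against 35.3% of all genes tested, and their median was 0.04. The glycolysis genes leaned that way, with 11 of 16 above 0 and a median of 0.08, as did 3 of 4 pyruvate dehydrogenase genes (median 0.02) and 4 of 5 pentose phosphate genes (median 0.04). Of the TCA cycle genes, 4 of 11 were above 0 with a median of -0.07, close to the share of all genes tested. At an unadjusted p under 0.05 there were 4 enzyme genes higher (Pfkp, Aldoa, Gapdh and Tkt) and 6 lower (Pfkm, Bpgm, Eno3, Pdhb, Idh2 and Idh3g), where all genes gave 6.48% and 20.4%. The 3 libraries of one group lay clear of the other group's for 4 enzyme genes above and 7 below, the 7 being those 6 and Sucla2. These are 11.1% and 19.4% of the 36, against 8.15% and 25.1% of all genes tested, and the other 25 overlapped. The median moved with the first replicates. Without IL-15C replicate 1 it was -0.007 with 17 of 36 above 0, while the median of all genes was -0.05. Without IL-2C replicate 1 it was 0.075 with 23 of 36 above 0, against -0.03 for all genes. Without both, an alternative chosen after seeing the data, it was 0.025 with 22 of 36 above 0, against -0.04 for all genes.

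**Figure D1:**
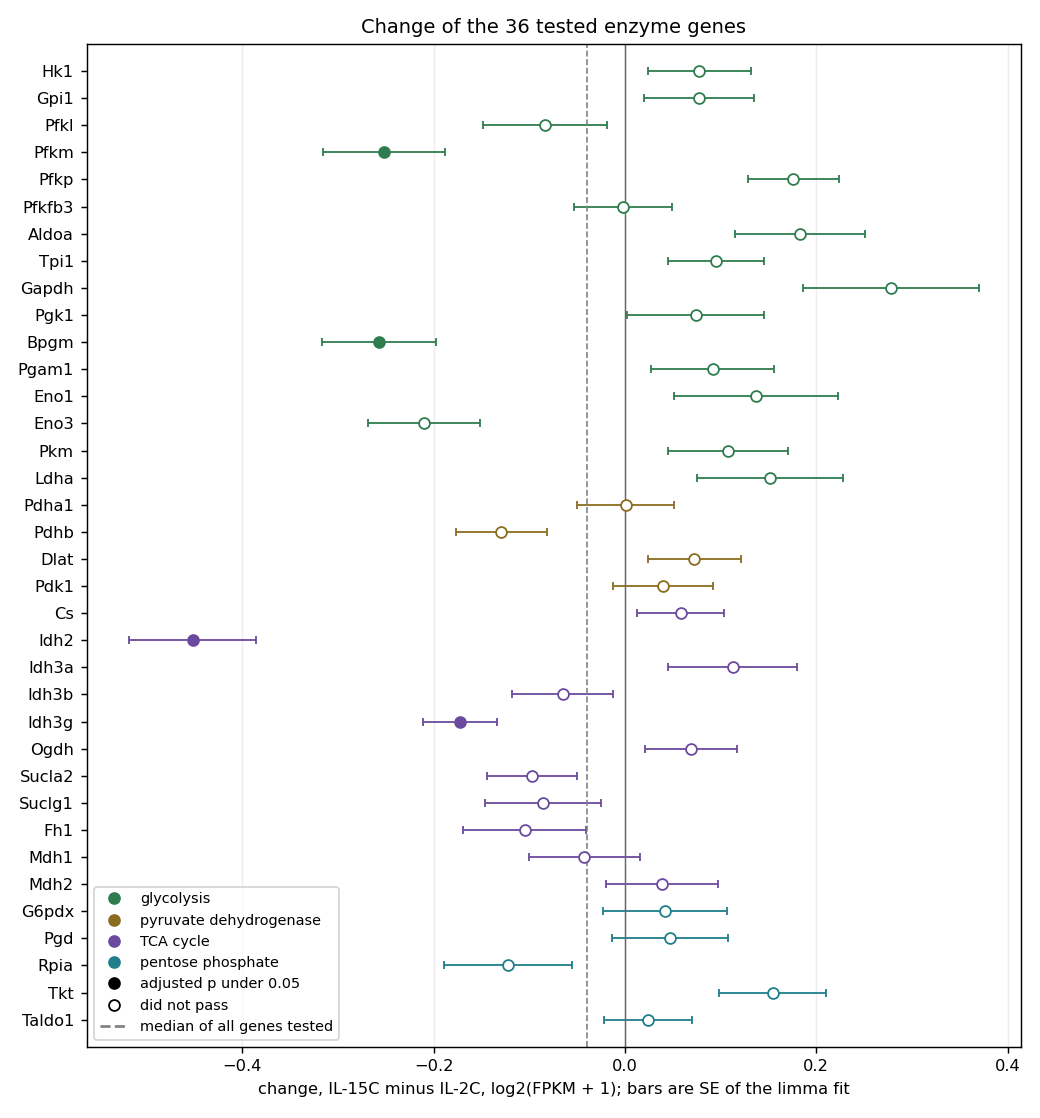
Log2 change (IL-15C minus IL-2C, on log2(FPKM + 1)) of the 36 tested enzyme genes, ordered by pathway step, with bars for the standard error of the limma fit and filled points for an adjusted p under 0.05. The 4 filled points, Pfkm, Bpgm, Idh2 and Idh3g, all lie below 0, and the dashed line marks the median of all genes tested at -0.04.

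The enzymes ranged from abundant to barely detected. Glyceraldehyde 3-phosphate dehydrogenase (Gapdh), enolase 1 (Eno1), lactate dehydrogenase A (Ldha), pyruvate kinase (Pkm) and aldolase A (Aldoa) were the 5 enzyme genes with a mean of at least 100 FPKM, and each had a positive log2 change, with a median of 0.15. Of all 514 genes at that level, 45.7% were above 0, with a median of -0.01. Without IL-15C replicate 1 the changes of these 5 enzyme genes were smaller, from 0.046 for Eno1 to 0.16 for Gapdh. Among enzyme genes from 20 to 100 FPKM, 13 of 19 were above 0 with a median of 0.05, where 35.6% of 2815 genes were. Among those from 1 to 20 FPKM, 4 of 12 were above 0 with a median of -0.09, where 34.3% of 6502 genes were. All 4 called genes but Idh3g, which averaged 38.0 and 43.0 FPKM, belonged to this lowest class. The other 4 members, hexokinase 2 (Hk2), Pfkfb4, aldolase C (Aldoc) and lactate dehydrogenase B (Ldhb), were below the filter, at 0.0492 to 0.656 FPKM in every library.

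**Figure D2:**
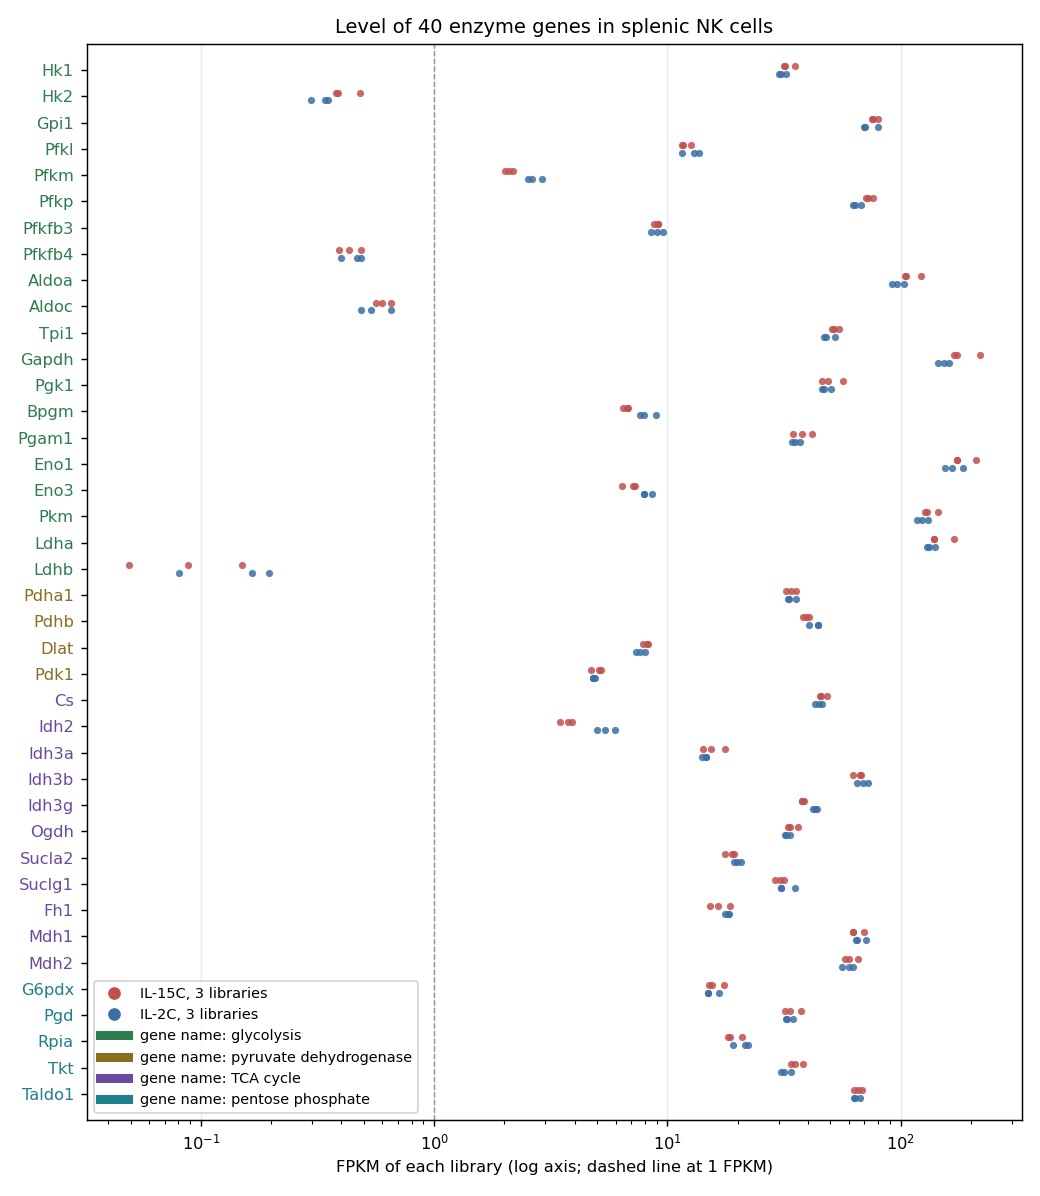
FPKM of the 40 enzyme genes in each of the 6 libraries on a log axis, IL-15C and IL-2C in separate colours, with a dashed line at 1 FPKM. The 2 groups lie on top of each other for most genes; Gapdh reaches 219 FPKM and Ldhb falls to 0.0492.

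Idh2 showed the largest change of the enzyme genes. Its enzyme makes NADPH inside mitochondria while turning isocitrate into alpha-ketoglutarate. It lies on chromosome 7 at 80094847 to 80115350 (mm10). Its level was 3.47, 3.89 and 3.75 FPKM in IL-15C replicates 1 to 3 and 5.94, 5.01 and 5.38 FPKM in those of IL-2C. Every IL-15C library was below every IL-2C library, and the gap between the groups exceeded the range within either. The deposited intervals implied 272 to 323 fragments for the gene under IL-15C and 462 to 513 under IL-2C. The means were 3.71 ± 0.213 FPKM (SD, n = 3) and 5.44 ± 0.472 FPKM, 1.47-fold higher in IL-2C. The log2 change was -0.45 ± 0.07 (SE), with a limma adjusted p of 0.0118. The call was lost without IL-2C replicate 1 (limma adjusted p of 0.0592), the library with the highest value, and with no filter on low genes (0.0669).

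Idh3g encodes the gamma subunit, one of the regulatory subunits of the NAD-dependent enzyme. It lies on chromosome X at 73778963 to 73786897. Its level was 38.7, 37.7 and 37.8 FPKM under IL-15C and 43.9, 42.8 and 42.3 FPKM under IL-2C. The groups were narrow and did not overlap, and the difference was small at 1.13-fold. The means were 38.0 ± 0.542 FPKM (SD, n = 3) and 43.0 ± 0.818 FPKM, a log2 change of -0.17 ± 0.04 (SE; limma adjusted p of 0.0362). It kept its call with IL-15C replicate 1 left out (limma adjusted p of 0.0385), and lost it with any other library left out (0.0546 to 0.123) and under median scaling (0.0525). The other subunits of the complex did not pass. Idh3b, also regulatory, was at 67.7, 62.6 and 66.7 FPKM under IL-15C and 72.5, 68.8 and 64.9 under IL-2C, a log2 change of -0.07 ± 0.05 (SE) with overlapping groups. Idh3a, the catalytic subunit, ran from 14.3 to 17.6 FPKM against 14.0 to 14.6, with a log2 change of 0.11.

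Bpgm, bisphosphoglycerate mutase, is best known in red blood cells, where 2,3-bisphosphoglycerate lowers the oxygen affinity of haemoglobin. It lies on chromosome 6 at 34476356 to 34505610. Its level was 6.74, 6.48 and 6.78 FPKM under IL-15C and 8.94, 7.97 and 7.61 FPKM under IL-2C, so the 3 IL-15C libraries were close together and all below. The means were 6.67 ± 0.166 FPKM (SD, n = 3) and 8.17 ± 0.690 FPKM, 1.23-fold higher in IL-2C, with a log2 change of -0.26 ± 0.06 (SE; limma adjusted p of 0.0396). Of the erythroid markers, 3 of 9 reached the filter and 0 passed the test, and most of their sum was Car2, at 71.3 to 85.2 FPKM. The globin gene Hba-a1 was at 12.3, 0.890 and 0.360 FPKM under IL-15C and 3.07, 3.16 and 1.52 under IL-2C. It was thus highest in IL-15C replicate 1 and, among the other 5 libraries, higher under IL-2C. The part of red cell RNA in the Bpgm result was not tested. The call of Bpgm held without IL-15C replicate 1 (limma adjusted p of 0.0403) or IL-2C replicate 3 (0.0463), and was lost without any other library (up to 0.117) and under median scaling (0.0515) and quantile normalization (0.0647).

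Pfkm stood just inside the threshold. Phosphofructokinase commits sugar to glycolysis, and its muscle, liver and platelet forms combine into tetramers. Pfkm lies on chromosome 15 at 98092589 to 98132447 and overlaps Senp1 at one end; the sources used here do not say whether strand was kept, so reads in the overlap cannot be assigned. Its level was 2.01, 2.10 and 2.17 FPKM under IL-15C and 2.90, 2.64 and 2.52 FPKM under IL-2C. Every IL-15C library was lower, at a level that the intervals put at 237 to 280 fragments against 324 to 351. The means were 2.09 ± 0.0792 FPKM (SD, n = 3) and 2.69 ± 0.196 FPKM, a 1.28-fold difference, with a log2 change of -0.25 ± 0.06 (SE; limma adjusted p of 0.0495). The call was lost with any 1 library left out (limma adjusted p of 0.0632 to 0.151) and under all 3 scalings (0.0544 to 0.0910).

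Pfkp, the platelet-type form and the main one in these cells, lay just outside the threshold in the other direction. It lies on chromosome 13 at 6579874 to 6648771 and overlaps Pitrm1 at one end. Its level was 76.3, 72.5 and 71.4 FPKM under IL-15C and 67.9, 63.9 and 62.7 FPKM under IL-2C, and every IL-15C library was above every IL-2C library. The means were 73.4 ± 2.59 FPKM (SD, n = 3) and 64.8 ± 2.73 FPKM, a 1.13-fold difference with a log2 change of 0.18 ± 0.05 (SE; limma adjusted p of 0.0569). It passed under median scaling (0.0153), TPM scaling (0.0178) and quantile normalization (0.0188). With any single library left out it did not pass (limma adjusted p of 0.0808 to 0.173). Eno3, the enolase form typical of muscle, was next outside the threshold on the lower side, with 6.39 to 7.26 FPKM against 7.91 to 8.63 FPKM and a limma adjusted p of 0.0612.

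**Figure D3:**
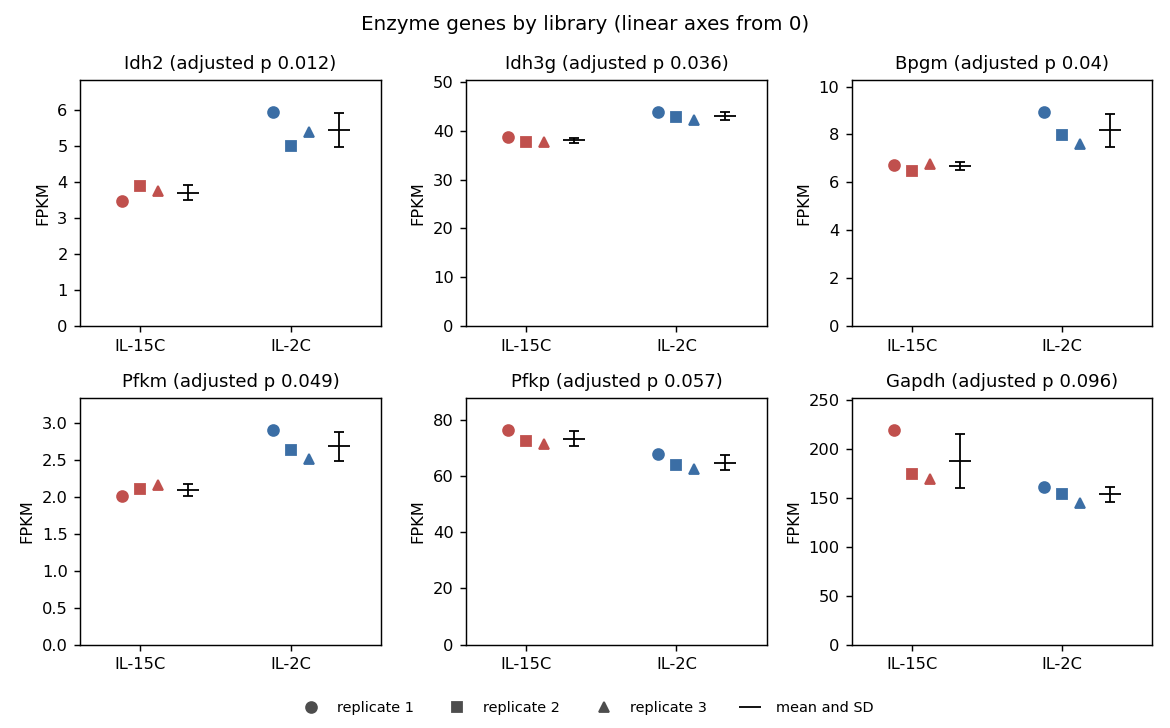
FPKM in each of the 3 IL-15C and 3 IL-2C libraries of Idh2, Idh3g, Bpgm, Pfkm, Pfkp and Gapdh, marked by replicate, with the mean and SD beside the points and axes from 0. The IL-15C points of Idh2 lie between 3.47 and 3.89 FPKM, below the IL-2C points at 5.01 to 5.94 FPKM, and those of Pfkp lie above.

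The promoters of the 3 called genes with a single annotated start, and that of Pfkp, are shown because they passed the test or stood nearest outside it, in opposite directions. The RefSeq table for GRCm38.p6 matched 39 of the 40 members, with 58 promoters, each running from 250 bases before a gene's start to 50 after it; Idh3a had no entry. Each sequence is the gene's own strand, 5′ to 3′, and capitals mark the core of the hypoxia response element, ACGTG or GCGTG on either strand. Hypoxia-inducible factor (HIF-1) binds this core and is known for driving glycolytic genes. Idh2 is at chr7:80115301-80115600 (minus strand), Idh3g at chrX:73786848-73787147 (minus), Bpgm at chr6:34476106-34476405 (plus) and Pfkp at chr13:6648722-6649021 (minus).
Idh2: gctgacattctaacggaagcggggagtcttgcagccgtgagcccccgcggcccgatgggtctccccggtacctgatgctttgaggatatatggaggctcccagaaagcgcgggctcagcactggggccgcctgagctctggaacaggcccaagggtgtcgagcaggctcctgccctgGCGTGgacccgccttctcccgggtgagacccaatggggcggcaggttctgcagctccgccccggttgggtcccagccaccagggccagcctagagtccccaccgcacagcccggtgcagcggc
Idh3g: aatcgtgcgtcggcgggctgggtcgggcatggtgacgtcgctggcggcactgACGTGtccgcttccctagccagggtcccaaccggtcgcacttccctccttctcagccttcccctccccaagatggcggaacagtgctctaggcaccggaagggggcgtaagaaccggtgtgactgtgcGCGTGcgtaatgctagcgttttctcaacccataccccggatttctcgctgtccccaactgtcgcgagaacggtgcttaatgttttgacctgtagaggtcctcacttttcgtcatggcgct
Bpgm: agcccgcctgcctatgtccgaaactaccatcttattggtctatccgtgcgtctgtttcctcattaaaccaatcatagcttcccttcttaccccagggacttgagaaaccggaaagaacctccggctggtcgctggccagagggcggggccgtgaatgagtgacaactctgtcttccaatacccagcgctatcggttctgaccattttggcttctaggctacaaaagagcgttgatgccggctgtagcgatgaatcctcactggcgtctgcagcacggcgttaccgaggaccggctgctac
Pfkp: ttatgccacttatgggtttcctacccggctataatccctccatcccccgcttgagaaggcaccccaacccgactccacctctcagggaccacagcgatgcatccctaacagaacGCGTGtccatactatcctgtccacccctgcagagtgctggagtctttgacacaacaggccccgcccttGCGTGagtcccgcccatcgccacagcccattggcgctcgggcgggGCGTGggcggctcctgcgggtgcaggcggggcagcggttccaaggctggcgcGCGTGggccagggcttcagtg

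The window of Idh2 held 1 core, that of Idh3g 2, that of Bpgm 0 and that of Pfkp 4, all of these 4 being GCGTG. Pfkm has 4 annotated starts and is not shown. Over all 58 member promoters, 41.4% held ACGTG, against 19.6% of the 32851 promoters of the table, and 60.3% held GCGTG against 32.4%. Either core was present in 45 of the 58 (77.6%), against 43.8%. These are counts of starts, not of genes. A gene with many starts, such as Ogdh with 6 or Pfkm with 4, weighs more, and its windows can overlap. Shares per gene were not computed. The 32851 promoters were not limited to genes expressed in these cells, and shares among promoters of expressed genes were not computed. The higher shares therefore cannot be read as particular to the enzyme genes. The member promoters were also richer in GC, with a median of 59.8% against 52.7%, and 62.1% held the GC box GGGCGG on either strand against 35.7%. The E-box CACGTG, which contains ACGTG and which MYC binds, was in 10.3% against 7.15%. A core in the window is a match of letters, and binding was not measured.

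At the entry of glycolysis, hexokinase 1 (Hk1), which traps glucose as glucose 6-phosphate, was at 35.4, 31.8 and 31.5 FPKM under IL-15C and 32.4, 30.7 and 30.2 under IL-2C. The groups overlapped, with a log2 change of 0.08 ± 0.05 (SE). Hk2, the form that activated lymphocytes often induce, was at 0.378 to 0.479 FPKM under IL-15C and 0.297 to 0.350 FPKM under IL-2C, without overlap but too low to enter the test. Phosphohexose isomerase (Gpi1), which turns glucose 6-phosphate into fructose 6-phosphate, was at 79.6, 76.5 and 75.5 FPKM against 79.7, 70.5 and 69.5. Its groups overlapped as well, with the same log2 change of 0.08.

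Of the enzymes around the phosphofructokinase step, the liver-type form Pfkl lay at 11.6 to 12.7 FPKM under IL-15C and 11.5 to 13.7 under IL-2C. Pfkfb3, which makes fructose 2,6-bisphosphate, a strong activator of phosphofructokinase, was at 9.15, 9.16 and 8.80 FPKM under IL-15C and 9.04, 9.61 and 8.52 under IL-2C. Its group means, 9.04 ± 0.202 FPKM (SD, n = 3) and 9.06 ± 0.546, had the ratio nearest to 1 among the tested glycolysis genes, and the sign of its log2 change turned with scaling. Pfkfb4, a related enzyme, was at 0.389 to 0.485 FPKM over the 6 libraries.

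Aldoa, which splits fructose 1,6-bisphosphate, was at 122, 105 and 105 FPKM under IL-15C and 103, 96.9 and 92.3 under IL-2C. The groups did not overlap but lay close, with a log2 change of 0.18 ± 0.07 (SE; limma adjusted p of 0.125). Aldoa passed under median scaling (0.0484). With any single library left out it did not (limma adjusted p of 0.143 to 0.265). Aldoc, at 0.484 to 0.656 FPKM, was below the filter. Triose phosphate isomerase (Tpi1) ran from 51.0 to 54.5 FPKM under IL-15C and from 47.1 to 52.1 in IL-2C, with overlapping groups.

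In lower glycolysis, the log2 change farthest from 0 belonged to Gapdh, on chromosome 6 at 125161852 to 125166467. Its level was 219, 174 and 169 FPKM under IL-15C and 161, 154 and 145 under IL-2C. All IL-15C libraries were above, and replicate 1 stood far above the other 2. The means were 187 ± 27.5 FPKM (SD, n = 3) and 153 ± 8.13 FPKM, 1.22-fold, with a log2 change of 0.28 ± 0.09 (SE; limma adjusted p of 0.0956). Without IL-15C replicate 1 the log2 change was 0.16 (limma adjusted p of 0.110).

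Eno1, which makes phosphoenolpyruvate, was at 211, 174 and 174 FPKM under IL-15C and 185, 167 and 156 under IL-2C. Again the first replicate was the highest of each group, and the groups overlapped, with a log2 change of 0.14 ± 0.09 (SE), or 0.046 without IL-15C replicate 1. Pkm, which makes pyruvate and ATP, ran from 127 to 145 FPKM under IL-15C and from 117 to 131 in IL-2C. Phosphoglycerate kinase (Pgk1) ran from 46.1 to 56.4 FPKM against 46.1 to 50.3, and phosphoglycerate mutase (Pgam1) from 34.7 to 41.6 against 34.2 to 37.1; the groups overlapped in all of these. Several glycolytic genes, Gapdh above all, have processed pseudogenes in the mouse genome, and the sources used here do not say how reads were shared among such copies, so their levels are uncertain to that extent. Eno1b was at 0.0636 to 0.168 FPKM. Its deposited position, chromosome 4 at 150237324 to 150248873, lies within that of Eno1 at 150237197 to 150248873. How reads were divided between them is not known.

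Ldha, which makes lactate from pyruvate, was at 169, 139 and 140 FPKM under IL-15C and 140, 129 and 132 under IL-2C. Only IL-15C replicate 1 lay above the IL-2C range, and the log2 change was 0.15 ± 0.08 (SE; limma adjusted p of 0.236), or 0.058 with that library left out. Ldhb, whose product favours the reverse reaction, was at 0.0492 to 0.196 FPKM, on 2 to 9 implied fragments per library.

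At the entry of the TCA cycle, Pdhb, the beta subunit of pyruvate dehydrogenase, was at 40.4, 39.2 and 38.0 FPKM under IL-15C and 44.1, 44.2 and 40.6 under IL-2C. The IL-15C libraries were lower without overlap, but the highest of them lay next to the lowest IL-2C library, and the log2 change of -0.13 ± 0.05 (SE) did not pass, with a limma adjusted p of 0.123. Pdha1, the alpha subunit, had equal means of 33.9 FPKM in both groups, with SDs of 1.61 and 1.56 (n = 3). Dlat, the acetyltransferase core of the complex, ran from 7.84 to 8.26 FPKM against 7.32 to 8.0. Pdk1, a kinase that switches the complex off, ran from 4.70 to 5.18 FPKM against 4.78 to 4.90.

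Of the 11 TCA cycle genes, 2 were called lower in IL-15C than in IL-2C (18.2%, against 4.72% of all genes tested) and 9 did not pass. Under median scaling Idh2 alone of the 11 was called. Of 16 further TCA cycle genes tested, 0 passed on the deposited values. Citrate synthase (Cs) ran from 45.1 to 48.3 FPKM under IL-15C and 42.9 to 45.8 under IL-2C. Oxoglutarate dehydrogenase (Ogdh) ran from 33.0 to 36.3 FPKM against 31.9 to 33.6. Both had positive log2 changes, 0.06 and 0.07, and overlapping groups. Sucla2, the ATP-forming beta subunit of succinyl-CoA ligase, was lower without overlap, at 17.7 to 19.3 FPKM against 19.4 to 20.7, with a limma adjusted p of 0.219. Its alpha partner Suclg1 overlapped, at 29.0 to 31.5 FPKM against 30.7 to 35.3.

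Fumarase (Fh1) ran from 15.3 to 18.6 FPKM under IL-15C and 17.6 to 18.5 under IL-2C. The malate dehydrogenases of the cytosol (Mdh1) and of mitochondria (Mdh2), which also carry reducing power between the compartments, ran from 62.3 to 69.8 against 64.5 to 71.1 FPKM and from 57.7 to 65.8 against 56.3 to 62.3 FPKM. Their log2 changes were -0.04 and 0.04. The sign of Mdh1 turned with scaling.

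In the oxidative branch of the pentose phosphate pathway, glucose 6-phosphate dehydrogenase (G6pdx), its first enzyme, ran from 15.0 to 17.5 FPKM under IL-15C and 14.9 to 16.7 under IL-2C. Phosphogluconate dehydrogenase (Pgd), the other NADPH-forming step, was at 37.5, 32.0 and 33.5 FPKM under IL-15C and 34.6, 32.7 and 32.1 under IL-2C. In both genes the groups overlapped, and the log2 change of Pgd was 0.05 ± 0.06 (SE).

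In the non-oxidative branch, transketolase (Tkt), which moves units between sugar phosphates, was at 38.2, 35.2 and 34.0 FPKM under IL-15C and 33.9, 31.5 and 30.7 under IL-2C. The groups were separated by a small gap, between IL-15C replicate 3 and IL-2C replicate 1. The log2 change was 0.15 ± 0.06 (SE; limma adjusted p of 0.118), and it passed under median scaling (0.0391), TPM scaling (0.0497) and quantile normalization (0.0416). With any single library left out Tkt did not pass (limma adjusted p of 0.126 to 0.278). Transaldolase (Taldo1), its partner in the branch, was at 68.5, 65.6 and 63.3 FPKM against 67.1, 63.1 and 64.0, with a log2 change of 0.02 ± 0.05 (SE). Ribose 5-phosphate isomerase (Rpia), at 18.2 to 20.8 FPKM against 19.2 to 22.2, had a log2 change of -0.12 and overlapping groups.

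The mix of isozymes was compared as each gene's share of its family's summed FPKM. This is a ratio within a library, which median or TPM scaling does not touch. Quantile normalization can change it. Families were completed with related genes outside the 40. Shares were computed for 29 genes in 11 families. The groups did not overlap for 17 of these genes, in 7 families, and overlapped for 12. By level, 8.15% of all genes tested lay clear above and 25.1% clear below, but levels are a different measure. Shares in families outside these pathways were not computed, so the count of 17 has no background of its own. In a family such as Eno1 with Eno3, both shares separate together. Shares come from the same FPKM values as the levels and are not separate evidence. The smallest two-sided exact p that 3 against 3 libraries allow is 0.1, so shares are given without a test, and a share that is higher for one gene lowers those of the others.

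Among phosphofructokinases, Pfkp held 83.9%, 84.1% and 83.8% under IL-15C and 80.3%, 80.3% and 81.7% under IL-2C. Its mean was 83.9% ± 0.165 (SD, n = 3) against 80.8% ± 0.785, a difference of 3.14 percentage points. Pfkm held 2.21% to 2.55% against 3.29% to 3.44%, and Pfkl 13.4% to 13.9% against 15.0% to 16.3%. The platelet form therefore made up a larger part of the family in every IL-15C library. Of the NADP-dependent isocitrate dehydrogenases, mitochondrial Idh2 held 46.6%, 48.6% and 46.1% under IL-15C and 55.2%, 53.0% and 55.7% under IL-2C, the rest being the cytosolic Idh1. Its mean was 47.1% ± 1.31 (SD, n = 3) against 54.6% ± 1.43, and the level of Idh1 itself overlapped between the groups, at 3.99 to 4.39 FPKM against 4.28 to 4.83.

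Of the beta subunits of succinyl-CoA ligase, the GTP-forming Suclg2 held 34.5%, 34.8% and 34.4% under IL-15C and 31.1%, 31.7% and 31.4% under IL-2C, with Sucla2 as the rest. The means differed by 3.17 percentage points, several times the SDs of 0.196 and 0.30 (n = 3), although neither gene's level passed the test. Within the NAD-dependent isocitrate dehydrogenase, Idh3g held 31.2% to 32.6% against 33.5% to 34.7%. Eno3 held 2.94% to 4.0% of the enolases against 4.11% to 4.93%. Aldoa held 99.3% to 99.5% of the aldolases and Ldha 99.9% to 99.96% of the lactate dehydrogenases over the 6 libraries, with overlapping groups.

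**Figure D4:**
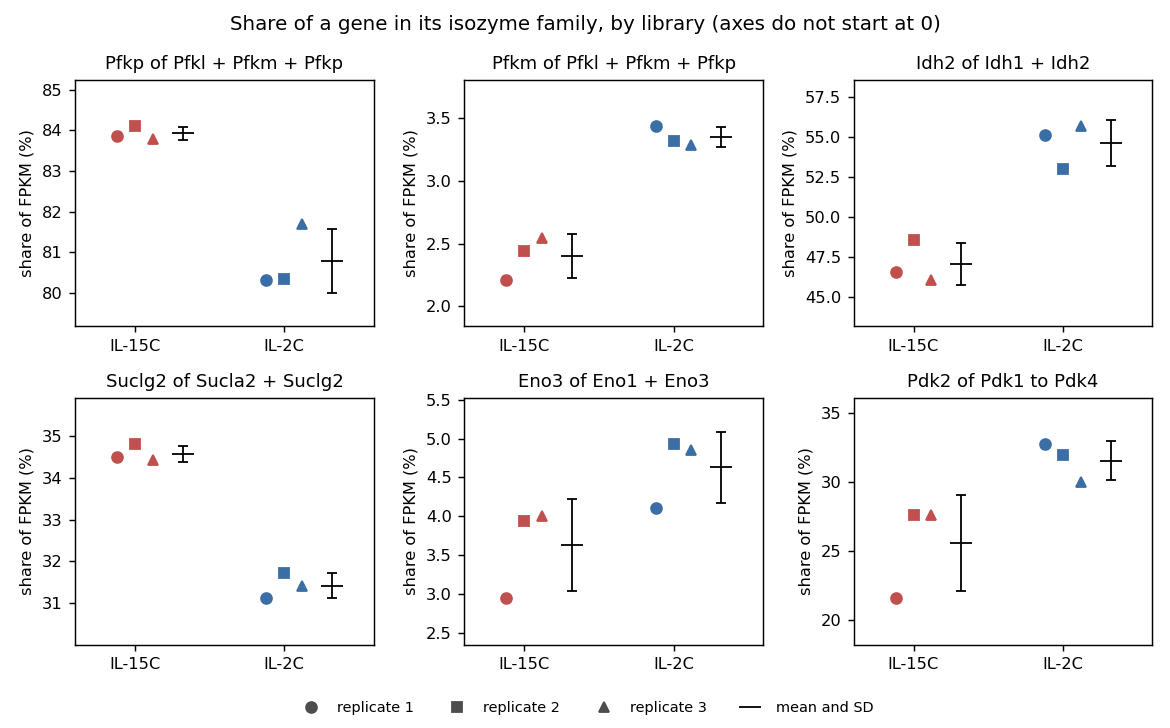
Share of a family's summed FPKM held by Pfkp, Pfkm, Idh2, Suclg2, Eno3 and Pdk2 in each library, marked by replicate, with mean and SD; the vertical axes do not start at 0. Pfkp sits near 83.9% under IL-15C and 80.8% under IL-2C, and Idh2 near 47.1% and 54.6%.

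Other genes of the same pathways were taken from a list of 80, of which 58 were tested: 1 was higher, 2 were lower and 55 did not pass, with a median log2 change of -0.03. These shares are close to or below the 1.72% higher and 4.72% lower of all genes tested. The higher gene was hexokinase 3 (Hk3), at 2.41, 2.49 and 2.49 FPKM under IL-15C and 1.82, 1.76 and 1.78 under IL-2C. Each group was tight, and the log2 change was 0.31 ± 0.06 (SE; limma adjusted p of 0.0208). Hk3 is known from myeloid cells. The granulocyte sum was 40.8 to 110 FPKM under IL-15C and 40.7 to 59.9 under IL-2C, and 1 of the 6 tested granulocyte markers, Retnlg, was also called higher; their part in the Hk3 result was not tested. Hk3 held 6.29% to 7.23% of the hexokinase FPKM under IL-15C against 5.25% to 5.50% in IL-2C. Its call was lost without IL-15C replicate 2 or 3 or IL-2C replicate 1 or 2 (limma adjusted p of 0.0590 to 0.0898), and held in the 3 scalings.

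Both lower genes act at pyruvate dehydrogenase, in a list of 11 tested. Pdk2, a kinase that switches the complex off, was at 4.30, 5.64 and 5.52 FPKM under IL-15C and 7.25, 6.94 and 6.27 under IL-2C, with a log2 change of -0.35 ± 0.09 (SE; limma adjusted p of 0.0495). IL-15C replicate 1 was the lowest of all. Pdk2 held 21.6% to 27.6% of the kinase FPKM under IL-15C against 30.0% to 32.7% in IL-2C, while the share of Pdk1 ran from 23.5% to 25.6% against 21.6% to 23.5%. Lias, which makes the lipoyl group that the pyruvate and oxoglutarate dehydrogenase complexes carry, was at 9.27, 9.53 and 9.39 FPKM against 11.3, 11.1 and 10.8, with a log2 change of -0.21 ± 0.04 (SE; limma adjusted p of 0.0250). The call of Lias held in the 3 scalings and was lost without IL-15C replicate 2 or 3 or IL-2C replicate 1 or 2 (limma adjusted p of 0.0688 to 0.104). That of Pdk2 was lost in the 3 scalings (0.0631 to 0.101) and without any library other than IL-15C replicate 1 (0.0654 to 0.161).

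In the other lists 0 genes passed, among 16 further TCA cycle genes, 8 further pentose phosphate genes and 12 regulators of glycolysis tested. The largest log2 changes there were -0.27 for Sdhaf1, an assembly factor of succinate dehydrogenase (limma adjusted p of 0.0651), -0.13 for Prps1, which makes phosphoribosyl pyrophosphate (0.324), and -0.16 for Vhl, which directs HIF-1 alpha to degradation (0.126). Hif1a had a log2 change of 0.08 and Myc one of -0.07, with limma adjusted p of 0.269 and 0.482; these 2 were chosen for their roles after their values were seen.

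The first replicate stood high for the enzyme genes in both groups. IL-15C replicate 1 was the highest of the 6 libraries for 20 of the 36 tested enzyme genes, against 25.0% of all genes tested, and the highest of its group for 29 of 36, against 53.2%. IL-2C replicate 1 was the highest of its group for 29 of 36, against 50.5%. Beside this, IL-15C replicate 1 had the highest proliferation sum, 138 FPKM against 116 to 117 in its group and 116 to 120 in IL-2C, most of it Pcna, and the granulocyte and erythroid sums given above. Of the 14 proliferation markers 9 were tested, and 8 of these had a log2 change above 0. Top2a, a topoisomerase of dividing cells, was called higher, at 5.85 to 6.15 FPKM under IL-15C and 4.33 to 4.84 under IL-2C (limma adjusted p of 0.0158), and the other 8 did not pass. B cell markers summed to 7.95 to 43.0 FPKM under IL-15C and 15.6 to 67.5 under IL-2C, T cell markers to 94.8 to 126 and 102 to 108, monocyte and macrophage markers to 38.4 to 48.7 and 33.6 to 46.5, and ILC1 markers to 31.9 to 46.7 and 35.6 to 39.5. Plasma cell markers summed to 28.2 to 37.6 FPKM and 27.6 to 31.8, and genes of RNA handling and stress to 98.6 to 118 and 100 to 117. The dendritic cell sum, 237 to 262 FPKM against 199 to 211, was nearly all Itgax, a gene that NK cells also express and that was called higher. Their part in the enzyme results was not tested. Leaving out the first replicate of both groups, an alternative chosen after seeing the data, called 2 enzyme genes higher (Pfkp and Gapdh) and 1 lower (Idh2) in limma. The share of all genes called there is not given.

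**Figure D5:**
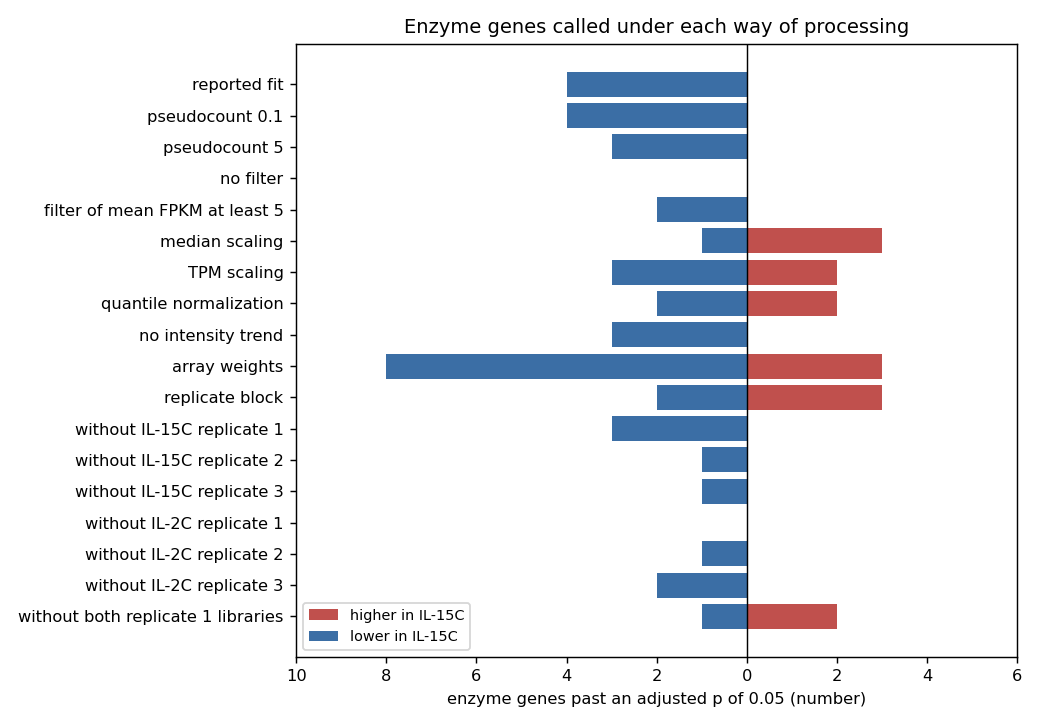
Number of enzyme genes past a limma adjusted p of 0.05 under each way of processing, higher in IL-15C to the right and lower to the left. The fit on the deposited values gave 0 and 4, no filter on low genes gave 0 and 0, and array weights gave 3 and 8. The share of all genes called is not shown.

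The authors' deposited table gives group values from the same libraries under a separate scaling. In the authors' deposited table, 0 of the 36 tested enzyme genes had intervals that did not overlap between IL-15C and IL-2C, against 0.814% of all genes tested. Idh2 stood there at 5.03 FPKM under IL-15C and 7.16 under IL-2C. There, in the authors' deposited table, 24 of the 36 enzyme genes (66.7%) had a higher value in IL-15C, with a median log2 ratio of 0.08, against 49.9% of all genes tested.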

How the data were processed

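Per the submitters' processing notes, the reads were processed with TopHat2 2.0.13 and Cufflinks 2.2.1 on mm10; no source used here names the annotation. Per the file headers, the authors deposited 1 table of FPKM with interval bounds per library and 1 table of group FPKM, which the labels name CuffDiff. Sample titles gave each library's group and replicate number. Each library held 24885 rows for 24343 genes; rows of one gene were summed, and 10 genes with a failed estimate were left out. Taking each interval as 2 Poisson SDs on either side of the estimate gave implied fragments. The reading is approximate: of rows with few implied fragments, 29.4% to 31.3% per library lay close to a whole number. For abundant genes the interval is wider than counting error and the implied number too low. In IL-15C replicate 1, Gapdh at 219 FPKM came to 2657 fragments and Pgam1 at 41.6 FPKM to 3171.

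FPKM is not a count, so limma 3.58.1 (R 4.3.3) was run on log2(FPKM + 1), with an intensity trend and two-sided, on the 9831 genes with a mean of at least 1 FPKM. Benjamini-Hochberg adjusted p-values under 0.05 were called. This scale understates changes of low genes. The fit was tested on simulated data.

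The enzyme genes, other lists and tests were chosen with earlier results of these data known. Values in every library are given for enzyme genes that passed and, per pathway step, for the most abundant and the most changed gene. The 16 alternatives chosen at the start were pseudocounts of 0.1 and 5, no filter, a filter of 5 FPKM, median, TPM and quantile scaling, no trend, array weights, a replicate block and each library left out. Leaving out both first replicates was added after seeing the data. Positions are 1-based, from the deposited tables. Tables, promoter matches and plots were made in Python 3.11.15 (pandas 2.3.3, matplotlib 3.10.9).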

Additional observations from a re-analysis of the deposited data

How the results depend on the processing

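The number of enzyme genes called lower in IL-15C, 4 on the deposited values, was 0 with no filter on low genes, 2 with a filter of 5 FPKM (which leaves Pfkm and Idh2 untested), 1 with median scaling, 2 with quantile normalization and 8 with array weights. With each library left out in turn it ran from 0 to 3. The number called higher, 0 on the deposited values at 4 higher by unadjusted p, was 3 with median scaling, 2 with TPM scaling, 2 with quantile normalization and 3 with array weights, and stayed 0 with each library left out. Without both first replicates, chosen after seeing the data, the counts were 2 higher and 1 lower. Pseudocounts of 0.1 and 5 and a fit without the trend gave 0 higher and 3 or 4 lower. Apart from median, TPM and quantile scaling, the share of all genes called under each alternative is not given here. The counts cannot be read as particular to the enzyme genes. The log2 change of Pfkfb3, below 0 on the deposited values, was 0.039 with median scaling, 0.013 with TPM scaling and 0.032 with quantile normalization. With each library left out it ran from -0.040 to 0.038, and was above 0 on dropping IL-15C replicate 3 or IL-2C replicate 2. Over the same omissions Pgd ran from -0.016 to 0.096 and Taldo1 from -0.0051 to 0.051, both below 0 only on dropping IL-15C replicate 1. No filter and the 5 FPKM filter change which genes are tested, and leaving out a library leaves fewer samples; the cause of the other changes was not tested. Of the 36 enzyme genes tested, 12 were called in at least 1 alternative and 24 in none. Depth limits the low genes: Pfkm rested on 237 to 351 implied fragments per library, and a difference in Ldhb, on 2 to 9, was not detectable.

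Replicate numbers appear in both groups, but the deviations of same-numbered libraries from their group means correlated across genes at -0.03, -0.16 and -0.02 for replicates 1, 2 and 3, so the numbers were not taken to pair the libraries. Among the 36 tested enzyme genes, however, replicate 1 was the highest of its group for 29 in each group. Over all genes tested this held for 53.2% in IL-15C and 50.5% in IL-2C. Whether the enzyme genes share a shift by replicate number was not tested. With the replicate number as a block, 3 enzyme genes were called higher (Pfkp, Aldoa and Gapdh) and 2 lower (Idh2 and Idh3g). The share of all genes called with the block is not given, so these counts cannot be read as particular to the enzyme genes. The SE went from 0.092 to 0.056 for Gapdh and from 0.086 to 0.042 for Eno1, but from 0.066 to 0.074 for Idh2. For Gapdh and Eno1, replicate 1 was the highest of both groups, a pattern that a block takes up. For Idh2 it was the highest of IL-2C and the lowest of IL-15C.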
